A study of Homo sapiens with 4 samples.

Results

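The 10 genes described here move cholesterol out of the cell or between its compartments: NR1H2, NR1H3, ABCA1, ABCG1, APOE, APOC1, MYLIP, NPC1, NPC2 and STARD4. They were taken by gene symbol from a table of 62077 rows, all 10 were found on a main chromosome, and 7 of the 10 had a mean of at least 1 FPKM over the 4 libraries. FPKM is the level of a transcript scaled by its exon length and by the size of the library, so levels can be set side by side between genes. The 3 genes under that mean were ABCA1, ABCG1 and APOE.

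Expression was measured by RNA-Seq in FaDu cells, an established line of squamous carcinoma cells of the hypopharynx. Cells were infected with a lentiviral short hairpin vector that carried a scrambled control sequence or targeted TET1 (TET1-si), the enzyme that converts 5-methylcytosine to 5-hydroxymethylcytosine. They were kept in normoxia, that is in air with 5% CO2, or in hypoxia at 1% O2 and 5% CO2 for 19 h. The groups were N-scr (normoxia, scrambled), H-scr (hypoxia, scrambled), N-si (normoxia, TET1-si) and H-si (hypoxia, TET1-si), with 1 library each. All 4 groups therefore shared the line, the vector backbone and the use of lentiviral infection. The hairpin, and with it the infection, differed between the scrambled and the TET1-si cells. Differences between infections therefore cannot be told apart from the knockdown. The methods list 1 hairpin sequence for TET1. The study calls its FaDu cells clones, and whether each line grew from a single cell is not given in the sources used here.

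Cells obtain cholesterol by synthesis and by uptake of lipoproteins. Lipoprotein cholesterol is freed in the lysosome, where NPC2 hands it to NPC1 for export, and soluble carriers such as STARD4 move it through the cytosol. When sterols are plentiful, the oxysterol receptors LXR-alpha (NR1H3) and LXR-beta (NR1H2) bind DNA together with a retinoid X receptor. Their targets include the exporters ABCA1 and ABCG1, the apolipoproteins APOE and APOC1, and MYLIP, a ubiquitin ligase that removes lipoprotein receptors. When sterols are scarce, SREBP-2 (gene SREBF2) raises synthesis and uptake instead, and STARD4 and NPC1 are among its known targets.

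Recovered depths ranged from 22500000 to 24500000 reads per library. Since each group had 1 library, no replicate error was available, and so no difference could be checked between replicates and no p-values are given. Each change was computed as the log2 difference of FPKM + 0.1, and a gene was counted as higher or lower from a 2-fold change (1 on that scale). The 95% counting intervals are exact (Clopper-Pearson), refer to the log2 ratio with no pseudocount, rest on approximate reads and cover counting error only. In bulk RNA, fewer cells of a type and less RNA per cell cannot be told apart. TET1 itself had 0.129 FPKM in N-scr, with 0.331 in H-scr, against 0.0493 in N-si and 0.122 in H-si. Both TET1-si libraries were below their scrambled counterparts, on 28, 76, 11 and 26 approximate reads. Of 8 established hypoxia targets, 7 passed 2-fold upwards in hypoxia with the scrambled control and 6 with TET1-si. Among all genes with a mean of at least 1 FPKM, 12.9% and 12.5% did. All 8 squamous and epithelial markers were above a mean of 1 FPKM, led by KRT5. Their summed level was 6210 to 7700 FPKM in the scrambled and 2040 to 2960 in the TET1-si libraries. Abundant genes weigh most in such a sum, which does not show how each marker changed. Macrophages and hepatocytes are the classic sources of APOE and APOC1. Of 10 macrophage markers 4 reached a mean of 1 FPKM, led by CD68, TYROBP was at 0 throughout, and the summed level was 24.6 to 24.7 in the scrambled and 31.9 to 35.2 in the TET1-si libraries. Of 5 hepatocyte markers only SERPINA1 reached it (summed level 4.06 to 12.6, highest in H-scr), and APOB and TTR were at 0. Of 5 fibroblast markers only COL1A1 did (5.29 to 37.0, higher in both hypoxia libraries), with COL1A2 and LUM at 0.

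The 10 genes were expressed at very different levels. NPC2, at a mean of 1090 FPKM, stood above 99.4% of the 15057 genes with a mean of at least 1 FPKM, whereas ABCA1 had a mean of 0.259. Between these lay STARD4 (44.8), NR1H2 (42.1), NPC1 (40.7), NR1H3 (14), MYLIP (10.5), APOC1 (5.54), ABCG1 (0.945) and APOE (0.686). The spread over the 4 libraries did not follow the level. On the log2 scale STARD4 spanned 4.67 between its lowest and highest library, APOC1 3.26 and ABCG1 2.82, against 0.78 for NR1H3, 0.74 for both NR1H2 and MYLIP and 0.57 for NPC2.

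**Figure D1:**
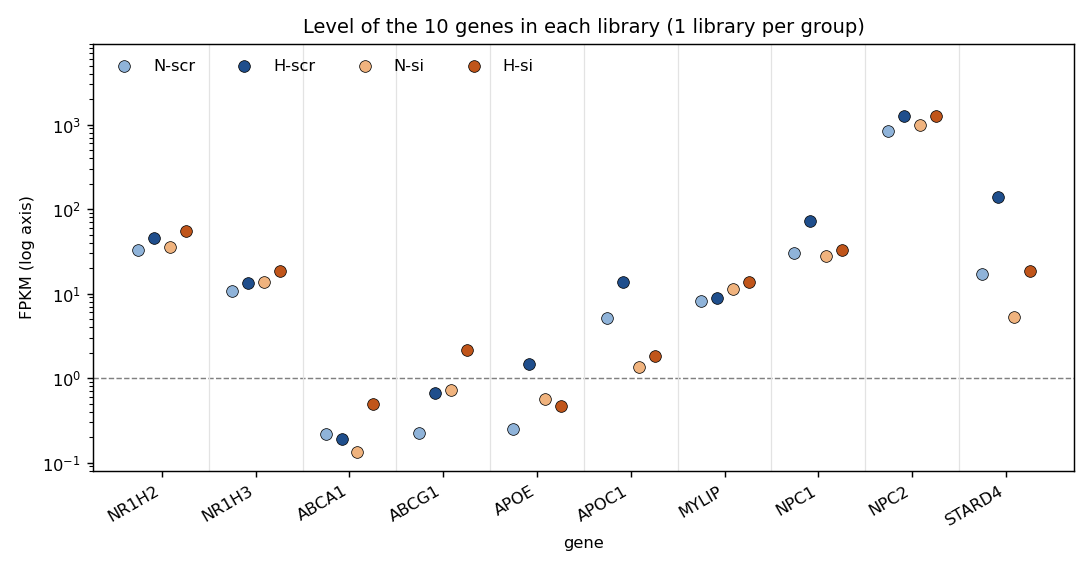
FPKM of the 10 genes on a log axis, 1 point per library, with the dashed line at 1 FPKM. STARD4, NPC1, APOC1 and APOE were highest in H-scr, the other 6 genes were highest in H-si, and no error bar is drawn because each group had 1 library.

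The scrambled hypoxia library had the highest level of STARD4, NPC1, APOC1 and APOE, while the TET1-si hypoxia library had the highest level of NR1H2, NR1H3, ABCA1, ABCG1, MYLIP and NPC2, for NPC2 by 0.01 on the log2 scale, within its interval. STARD4, NPC1 and APOC1 were also the members that met the study's 3 inequalities for genes regulated by TET1 (a hypoxia level in scrambled cells over 2 times that in TET1-si cells and over the normoxia level, which was itself no lower than in TET1-si cells). That is 3 of the 7 members above the mean of 1 FPKM, beside 3.84% of all 15057 genes. The study names APOC1 in its group of cholesterol metabolic genes, selected in part by these inequalities on the same libraries. The pass of APOC1 was therefore known beforehand, and the count of 3 is a description without independent weight. Of the 30 pairs of neighbouring levels within a gene, 21 had a counting interval that excluded 0 and 9 had one that held it.

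Because these 3 genes moved in the same direction and ABCA1 did not, the DNA just upstream of their start sites is shown (RefSeq, GRCh38.p14, 250 bases, read 5′ to 3′ along the gene). Capitals mark the core of a hypoxia response element, ACGTG or GCGTG on either strand. STARD4 lies at chr5:111512536-111512785 (minus strand), NPC1 at chr18:23586507-23586756 (minus), APOC1 at chr19:44914422-44914671 (plus) and ABCA1 at chr9:104928156-104928405 (minus). The RefSeq start sites lie inside the gene loci of the expression table, 392 bases from the 5′ end for NPC1 and 425 for APOC1, whose windows therefore fall wholly within those loci, and 55 for STARD4 and 82 for ABCA1.
STARD4: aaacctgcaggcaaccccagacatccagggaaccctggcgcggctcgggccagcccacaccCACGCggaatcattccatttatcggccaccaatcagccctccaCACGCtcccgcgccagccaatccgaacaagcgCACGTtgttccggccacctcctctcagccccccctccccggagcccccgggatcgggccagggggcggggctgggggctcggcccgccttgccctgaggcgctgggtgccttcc
NPC1: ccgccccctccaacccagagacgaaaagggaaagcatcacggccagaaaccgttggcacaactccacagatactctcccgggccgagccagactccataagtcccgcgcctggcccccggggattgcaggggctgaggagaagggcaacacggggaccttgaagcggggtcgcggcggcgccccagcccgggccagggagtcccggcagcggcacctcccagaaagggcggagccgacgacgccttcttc
APOC1: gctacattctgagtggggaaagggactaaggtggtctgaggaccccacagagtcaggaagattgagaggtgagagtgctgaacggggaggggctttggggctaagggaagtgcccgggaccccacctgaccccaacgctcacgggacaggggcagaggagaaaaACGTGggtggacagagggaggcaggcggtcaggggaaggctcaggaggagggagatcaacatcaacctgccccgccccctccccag
ABCA1: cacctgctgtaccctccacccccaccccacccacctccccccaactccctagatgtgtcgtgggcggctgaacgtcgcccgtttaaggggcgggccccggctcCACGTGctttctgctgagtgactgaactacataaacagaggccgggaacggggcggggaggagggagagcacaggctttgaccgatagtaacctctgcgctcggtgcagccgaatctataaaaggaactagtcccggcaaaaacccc
STARD4 held 3 cores, starting at -189, -146 and -114 from the start site, APOC1 held 1 at -86, and NPC1 held 0. ABCA1 held 2 overlapping cores at -147 and -146, whose letters together spell the E-box CACGTG. Such a core is common: 43.2% of 35116 upstream windows of this length held at least 1. Of the 10 members 9 had an entry in the table, with 15 windows in all, and ABCG1 had none. The core stood in 5 of the 15 windows, those of ABCA1, APOC1, NR1H2, NR1H3 and STARD4. The sterol regulatory element core TCACNCCA was found in 0 of the 15 windows and in 3.2% of all windows. The GC box GGGCGG stood in 11 of the 15 windows (42.6% of all windows), CCAAT in 6, upstream of STARD4, MYLIP, NR1H3, NPC2 and APOE (32.0%), and the nuclear receptor half-site AGGTCA in 1, of NR1H3 (12.1%). These matches describe the letters only, and factor binding was not measured. The 4 windows had a GC content of 61.6% to 70.4% and held 20 CpG dinucleotides in STARD4, 22 in NPC1, 16 in ABCA1 and 7 in APOC1.

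The sterol sensors came first. NR1H2 (ENSG00000131408, hg19 chromosome 19, 50832910 to 50886239, plus strand) encodes LXR-beta, the form found in most tissues. It had 32.55 FPKM in N-scr, with 45.91 in H-scr, against 35.2 in N-si and 54.57 in H-si. Both hypoxia libraries lay above both normoxia libraries. The hypoxia response was 0.50 in scrambled cells (counting interval 0.41 to 0.59) and 0.63 in TET1-si cells (0.55 to 0.72). The TET1-si response was 0.25 under hypoxia (0.17 to 0.33) and 0.11 under normoxia (0.02 to 0.21), the latter turning to -0.05 after median-of-ratios and -0.06 after upper-quartile scaling. NR1H2 shared its locus with opposite-strand genes, of which the long noncoding RNA ENSG00000269392 had 2.33, 10.0, 10.9 and 35.6 FPKM in the same order. Whether the reads kept strand is not given in the sources used here, and the part of such sharing in the NR1H2 values was not tested.

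NR1H3 (ENSG00000025434, chromosome 11, 47269851 to 47290396, plus strand) encodes LXR-alpha, which is abundant in liver and macrophages. It had 10.69 FPKM in N-scr, with 13.22 in H-scr, against 13.72 in N-si and 18.39 in H-si. Each treatment alone gave about the same level, N-si and H-scr differing by 0.05 with an interval from -0.12 to 0.23, and the library with both was the highest. The hypoxia response was 0.30 (0.12 to 0.50) in scrambled and 0.42 (0.26 to 0.59) in TET1-si cells. TET1-si went with 0.47 under hypoxia (0.31 to 0.64) and 0.36 under normoxia (0.17 to 0.55). None of these reached 2-fold. ACP2, which overlaps NR1H3 on the opposite strand, was lower in each TET1-si library than in its scrambled counterpart (14.1, 17.6, 10.6 and 13.3 FPKM), unlike NR1H3.

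The lipid exporters were poorly expressed, and both were highest in H-si. ABCA1 (ENSG00000165029, chromosome 9, 107543283 to 107690518, minus strand) passes cholesterol and phospholipid to lipid-poor apolipoprotein A-I. It had 0.2165 FPKM in N-scr, with 0.1897 in H-scr, against 0.1351 in N-si and 0.4962 in H-si, on approximately 51, 47, 34 and 114 reads. H-si stood apart as the highest and N-si was the lowest. The intervals of N-scr over H-scr and of H-scr over N-si held 0, while that of N-si against N-scr did not: the TET1-si response under normoxia was -0.43, with a ratio of -0.68 without the pseudocount (-1.35 to -0.03), opposite in sign to that under hypoxia. In scrambled cells the hypoxia response was -0.13 (interval -0.81 to 0.39) and was not detectable at this depth. In TET1-si cells the hypoxia library was 3.67-fold higher, a change of 1.34 with the pseudocount and a ratio of 1.88 without it (1.30 to 2.47); a pseudocount of 1 left 0.40. The difference between these responses was 1.47 (1.25 to 2.92 without the pseudocount), and 0.43 with a pseudocount of 1. Under hypoxia TET1-si cells had 2.62 times the ABCA1 level of scrambled cells, which is 1.04 with the pseudocount and was below 1 under median-of-ratios scaling, upper-quartile scaling and a pseudocount of 1, where it was lowest at 0.33.

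ABCG1 (ENSG00000160179, chromosome 21, 43619799 to 43717354, plus strand) exports cholesterol to high-density lipoprotein particles. It had 0.2217 FPKM in N-scr, with 0.664 in H-scr, against 0.7282 in N-si and 2.166 in H-si, from approximately 14, 45, 49 and 135 reads. The single treatments gave similar levels, N-si over H-scr by 0.13 with an interval from -0.50 to 0.73, and H-si was 9.77 times N-scr. Hypoxia went with a 3.0-fold higher level in scrambled and a 2.97-fold higher level in TET1-si cells, and TET1-si with a 3.26-fold higher level under hypoxia and a 3.28-fold higher level under normoxia. All 4 counting intervals excluded 0, and on the log2(FPKM + 0.1) scale the changes were 1.25, 1.45, 1.57 and 1.36. With a pseudocount of 1 none of the 4 reached 2-fold, the values lying between 0.45 and 0.93. The difference of the hypoxia responses, 0.20, had an interval from -1.11 to 1.01 and was -0.01 without the pseudocount. The other protein-coding genes of the region were also higher after TET1-si in their median, though not each of them under hypoxia. The 14 within 1 Mb had medians of 0.71 under hypoxia (from -1.68 to 1.71) and 0.78 under normoxia (from 0.06 to 2.53). The 115 of chromosome 21 had medians of 0.69 and 0.77, beside 0.08 and 0.15 for all protein-coding genes. For hypoxia the 14 neighbours had medians of 0.26 and 0.39. The part of the chromosome in the ABCG1 values was not tested.

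**Figure D2:**
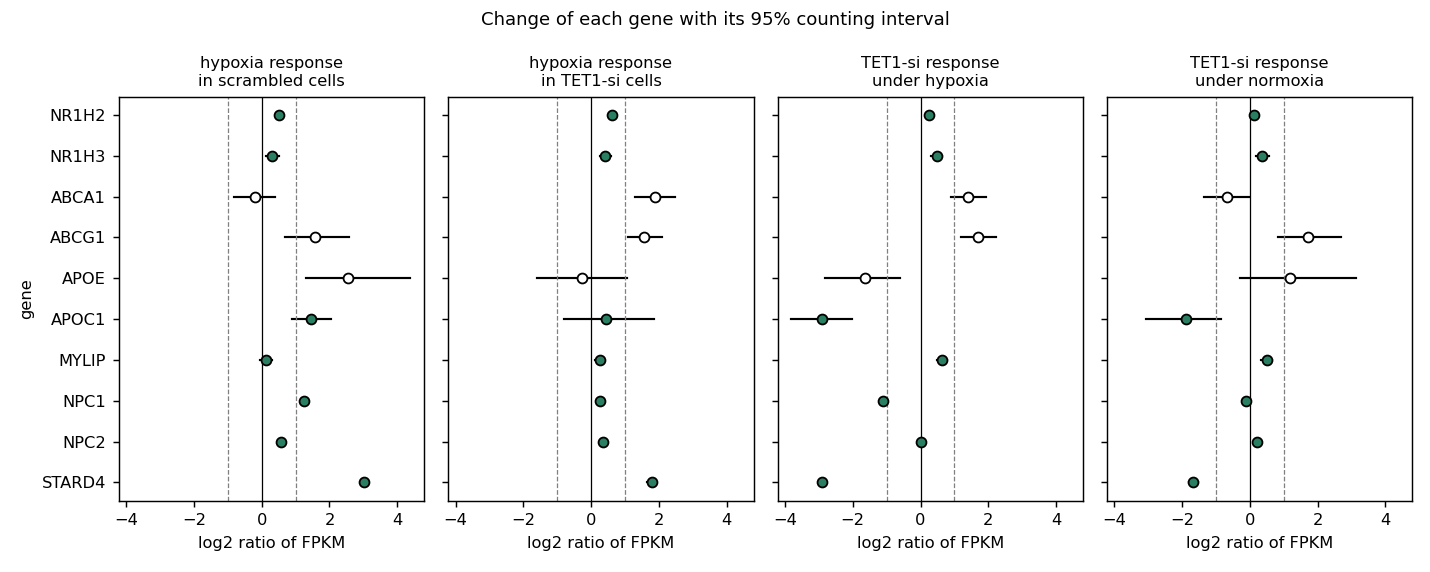
Log2 ratio of FPKM without a pseudocount for each gene in the 4 contrasts, with bars for the exact 95% counting interval, filled points for genes with a mean of at least 1 FPKM, and dashed lines at 2-fold. The points of ABCG1, MYLIP, NR1H2, NR1H3 and NPC2 lie right of 0 in all 4 panels, NPC2 by only 0.01 in the TET1-si response under hypoxia. STARD4 and APOC1 lie furthest left in the TET1-si response under hypoxia, and the bars of APOE are among the widest in each panel.

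The apolipoprotein genes lie side by side on chromosome 19, and both were highest in H-scr. APOE (ENSG00000130203, 45409011 to 45412650, plus strand) is the ligand through which lipoprotein remnants bind their receptors. It had 0.2496 FPKM in N-scr, with 1.465 in H-scr, against 0.5635 in N-si and 0.4661 in H-si, which is approximately 5, 34, 13 and 10 reads. H-scr stood above the others, whose neighbouring intervals held 0. In scrambled cells hypoxia went with a 5.87-fold ratio (log2 interval 1.31 to 4.39), whereas the TET1-si value of -0.23 had an interval from -1.60 to 1.05. The difference of the responses was -2.39, with an interval from -5.09 to -1.01 without the pseudocount. Under hypoxia TET1-si cells were lower by a ratio of 3.14 (log2 interval -2.83 to -0.60). With a pseudocount of 1 neither contrast reached 2-fold (0.98 and -0.75). The gain under normoxia, 0.92, had an interval from -0.30 to 3.12 and was not detectable at this depth.

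APOC1 (ENSG00000130208, 45417504 to 45422606, plus strand) encodes a small exchangeable apolipoprotein that slows the clearance of lipoproteins. Approximate reads of 35 in N-scr and 102 in H-scr, against 10 in N-si and 13 in H-si, stood behind 5.087, 13.85, 1.361 and 1.842 FPKM. Both scrambled libraries lay above both TET1-si libraries. The TET1-si response was -2.85 under hypoxia (interval -3.81 to -2.02), below that of all but 214 of the 15057 genes, and -1.83 under normoxia (-3.08 to -0.86), with 310 genes lower still. The hypoxia response of 1.43 in scrambled cells had an interval from 0.88 to 2.05, while that of 0.41 in TET1-si cells (-0.80 to 1.85) was not detectable. Accordingly the difference between them, -1.02, had an interval that held 0 (-2.39 to 0.51). The 48 other protein-coding genes within 1 Mb changed after TET1-si by a median of 0.46 in hypoxia and 0.51 in normoxia. The nearby TOMM40 went below that median, with 68.9, 34.8, 49.5 and 16.6 FPKM in N-scr, H-scr, N-si and H-si, and was lower in each TET1-si library than in its scrambled counterpart, as was APOC1. APOC1 has a copy close by, APOC1P1, which was listed at 0 in all 4 libraries. The sequences of the copies were not compared, so the part of shared reads in the APOC1 values was not tested.

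MYLIP (ENSG00000007944, chromosome 6, 16129356 to 16148479, plus strand), also known as IDOL, marks lipoprotein receptors, among them VLDLR and LRP8, for degradation. It had 8.111 FPKM in N-scr, with 8.813 in H-scr, against 11.44 in N-si and 13.63 in H-si. Both TET1-si libraries exceeded both scrambled ones, by 0.62 under hypoxia (0.48 to 0.78) and 0.49 under normoxia (0.34 to 0.66). Hypoxia in scrambled cells gave 0.12 with an interval that held 0 (-0.05 to 0.29), and in TET1-si cells 0.25 (0.11 to 0.39). The transcripts of these receptors were both lower after TET1-si under hypoxia. LRP8, which binds APOE-rich particles, had 43.86, 42.61, 31.34 and 10.09 FPKM in N-scr, H-scr, N-si and H-si, with H-si well below the rest and a hypoxia response of -1.62 in TET1-si cells beside -0.04 in scrambled cells (0.08 after TPM scaling). VLDLR had 1.901, 6.912, 1.906 and 3.903, so its normoxia levels were nearly equal. MYLIP acts on receptor protein, which was not measured. The 4 other protein-coding genes within 1 Mb of MYLIP had median TET1-si responses of 0.2 under hypoxia and 0.5 under normoxia. Their values ranged from -1.42 to 1.73 and from -0.63 to 1.53. The part of the region in the MYLIP values was not tested.

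The lysosomal pair behaved unequally. NPC1 (ENSG00000141458, chromosome 18, 21086307 to 21166862, minus strand), the membrane protein that carries cholesterol out of the lysosome, had 30.15 FPKM in N-scr, with 71.88 in H-scr, against 27.8 in N-si and 33.08 in H-si. H-scr stood apart and the other libraries lay close together. Hypoxia went with a 2.38-fold higher level in scrambled cells (1.25, interval 1.19 to 1.31) and a 1.19-fold higher level in TET1-si cells (0.25, interval 0.18 to 0.32). The difference of these responses was -1.0 (-1.10 to -0.91), at the 2-fold line, and it crossed that line under a pseudocount of 1 and under each of the 3 scalings (values up to -0.94). TET1-si went with a 2.17-fold lower level under hypoxia and a 1.08-fold lower level under normoxia. RMC1, which overlaps NPC1 on the opposite strand, had 21.45, 25.3, 24.11 and 22.43 FPKM, and the 10 protein-coding neighbours within 1 Mb had a median change of -0.03 after TET1-si in hypoxia.

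NPC2 (ENSG00000119655, chromosome 14, 74942895 to 74960880, minus strand), the soluble lysosomal protein that loads cholesterol onto NPC1, had 850.8 FPKM in N-scr, with 1252 in H-scr, against 990.9 in N-si and 1264 in H-si. The hypoxia libraries were level with each other, at a TET1-si response of 0.01 (-0.02 to 0.04), which turned to -0.13 under median-of-ratios and -0.10 under upper-quartile scaling. The hypoxia response was 0.56 (0.52 to 0.59) in scrambled and 0.35 (0.32 to 0.38) in TET1-si cells. Under hypoxia, therefore, the ratio between the partners shifted: NPC1 was lower in TET1-si than in scrambled cells by 1.12 on the log2 scale and NPC2 was not lower beyond its interval. The 33 protein-coding neighbours of NPC2 had median changes after TET1-si of 0.52 in hypoxia and 0.79 in normoxia.

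STARD4 (ENSG00000164211, chromosome 5, 110831731 to 110848288, minus strand), a soluble carrier that moves cholesterol between membranes of the cytosol, had the widest range of the 10 genes. It had 17.01 FPKM in N-scr, with 138.4 in H-scr, against 5.34 in N-si and 18.41 in H-si, on approximately 1721, 14928, 578 and 1830 reads. H-scr was 25.9 times N-si, while H-si and N-scr differed by 0.11 (interval 0.02 to 0.21). The hypoxia response was 3.02 in scrambled cells (2.95 to 3.10), an 8.14-fold higher level that 211 of the 15057 genes exceeded, and 1.77 in TET1-si cells (1.65 to 1.92), or 3.45-fold. Thus STARD4 was still higher in hypoxia after TET1-si, and it was the one member above the mean of 1 FPKM to pass 2-fold there. The TET1-si response was -2.90 under hypoxia (-2.98 to -2.84) and -1.65 under normoxia (-1.81 to -1.53), 7.52-fold and 3.18-fold lower. The difference of the hypoxia responses was -1.25 (-1.39 to -1.08). Its antisense RNA STARD4-AS1 had 0.414, 1.34, 0.0536 and 0.142 FPKM, the same order of the libraries except that N-scr was above H-si. Without strand the reads of the sense and antisense RNA cannot be told apart, although the antisense level was at most 2.43% of that of STARD4.

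**Figure D3:**
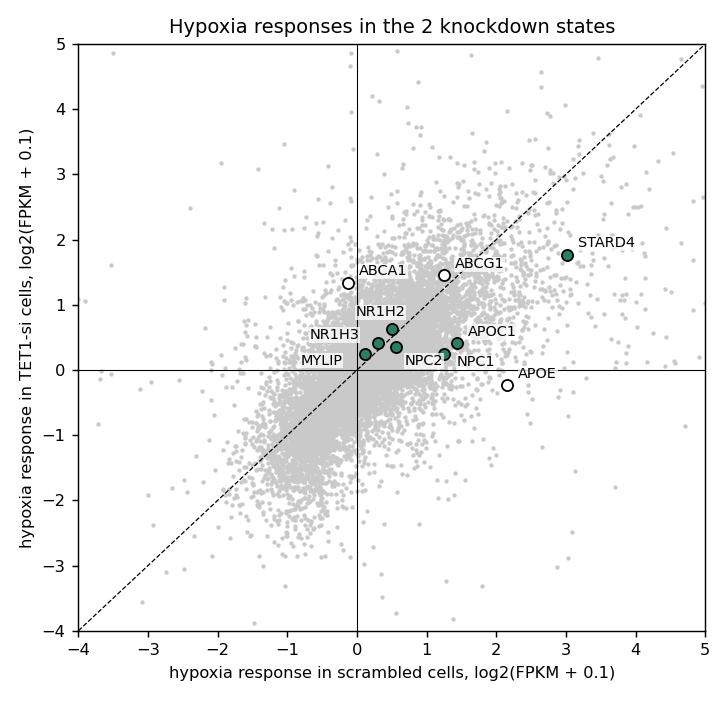
Hypoxia response in scrambled cells (horizontal) against that in TET1-si cells (vertical), both as log2 change of FPKM + 0.1, for the 10 genes and for all genes with a mean of at least 1 FPKM (grey; a few lie outside the axes). STARD4, NPC1, APOC1 and APOE lie well below the diagonal, ABCA1 lies above it, and open points mark genes under the mean of 1 FPKM.

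Counted together, 3 of the 7 members above the mean of 1 FPKM were higher by at least 2-fold in hypoxia in scrambled cells (STARD4, APOC1 and NPC1) and 0 lower, beside 12.9% and 4.53% of all genes. In TET1-si cells 1 was higher and 0 lower, beside 12.5% and 8.66%. All 7 had a value above 0 in both hypoxia responses, with medians of 0.56 and 0.41 beside 0.05 and 0.03 for all genes. After TET1-si under hypoxia 0 were higher and 3 lower (STARD4, APOC1 and NPC1), beside 12.0% and 8.35%, and under normoxia 0 were higher and 2 lower (APOC1 and STARD4), beside 12.1% and 5.56%. The difference of hypoxia responses was at least 2-fold higher in 0 members and lower in 3, beside 4.87% and 7.86%. That count of 3 became 1 under median-of-ratios or upper-quartile scaling, where NPC1 and APOC1 no longer reached 2-fold. The contrasts share libraries in pairs, so these counts are not independent of each other. The medians of the TET1-si response, 0.01 and 0.11 beside 0.10 and 0.15 for all genes, covered values from -2.90 to 0.62 and from -1.83 to 0.49. The scaling also moved the split of all changed genes after TET1-si: 59.0% of them were higher under hypoxia and 68.6% under normoxia, against 47.0% and 56.0% after median-of-ratios scaling.

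The receptor partners and coregulators of LXR, with other genes linked to LXR or to lipid transport, were followed next. They formed a list of 18 genes, of which 14 had a mean of at least 1 FPKM. Their median hypoxia response was 0.58 in scrambled and 0.71 in TET1-si cells, beside 0.05 and 0.03 for all genes. In both cases 3 were at least 2-fold higher, beside 12.9% and 12.5% of all genes, and 0 lower, beside 4.53% and 8.66%. In TET1-si cells that 3 ranged from 2 to 4 over the scalings. After TET1-si in hypoxia, 3 of the 14 were at least 2-fold higher and 2 lower, beside 12.0% and 8.35% of all genes. In normoxia 2 were higher and 1 lower, beside 12.1% and 5.56%. The list's medians for these changes were 0.36 in hypoxia and 0.22 in normoxia, beside 0.10 and 0.15 for all genes. The value under normoxia was 0.06 after median-of-ratios scaling, and over the scalings the counts under hypoxia ranged from 2 to 3 higher and from 1 to 3 lower. RXRA, a retinoid X receptor, had 39.48, 49.16, 51.55 and 109.4 FPKM in N-scr, H-scr, N-si and H-si, highest where both treatments met, and a TET1-si response of 1.15 under hypoxia. The coactivator NCOA2 was higher in both TET1-si libraries, with 10.16 and 20.38 FPKM in normoxia and 15.24 and 33.36 in hypoxia. RXRB, another retinoid X receptor, had 29.16, 43.57, 31.52 and 56.09, with hypoxia responses of 0.58 in scrambled and 0.83 in TET1-si cells.

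Of the other genes on this list, ABCA7, a lipid transporter related to ABCA1, had 6.371, 23.86, 22.36 and 36.63 FPKM. N-scr alone was therefore low, with responses of 1.89 to hypoxia in scrambled cells and 1.80 to TET1-si in normoxia. SREBF1, the gene of the fatty acid regulator SREBP-1, had 105, 280.3, 94.85 and 144.8, a hypoxia response of 1.42 in scrambled and 0.61 in TET1-si cells and a TET1-si response of -0.95 under hypoxia. SCARB1, which takes up cholesterol from high-density lipoprotein, was lower after TET1-si, from 33.62 to 16.48 FPKM in hypoxia and from 17.29 to 9.276 in normoxia. LPCAT3, a phospholipid acyltransferase, had 39.21, 50.66, 47.84 and 55.3, with hypoxia responses of 0.37 and 0.21. TTC39B had 7.187, 8.388, 13.18 and 10.78 FPKM, a hypoxia response of 0.22 in scrambled and -0.29 in TET1-si cells. Below the mean of 5 FPKM used for naming genes, and chosen after their values were seen, PLTP, the phospholipid transfer protein, had 4.757, 5.155, 0.0675 and 0.203 FPKM and the apolipoprotein gene APOD had 0.19, 1.543, 1.034 and 9.922. Those changes pointed opposite ways after TET1-si, -4.12 for PLTP and 2.61 for APOD under hypoxia. LPL was listed at 0 in all 4 libraries.

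Further genes of sterol transport and esterification formed a list of 22, all with a mean of at least 1 FPKM. In hypoxia 4 were at least 2-fold higher in scrambled and 1 in TET1-si cells, beside 12.9% and 12.5% of all genes. In TET1-si cells TPM scaling made it 4. In both cases 0 were lower, beside 4.53% and 8.66%. The median responses, 0.21 and 0.16 beside 0.05 and 0.03 for all genes, were smaller than those of the members. After TET1-si 0 were higher and 5 lower under hypoxia, beside 12.0% and 8.35% of all genes. Under normoxia 1 was higher and 3 lower, beside 12.1% and 5.56%. The medians were 0.10 and 0.02, beside 0.10 and 0.15 for all genes. After median-of-ratios scaling they turned to -0.05 and -0.14, beside -0.03 and -0.00 for all genes. STARD5, a sterol carrier related to STARD4, had 8.675, 37.83, 5.752 and 11.05 FPKM in N-scr, H-scr, N-si and H-si. The order of its libraries was that of STARD4, with a hypoxia response of 2.11 in scrambled and 0.93 in TET1-si cells and a TET1-si response of -1.77 under hypoxia. LIPA, the lysosomal lipase that frees cholesterol from its esters, had 34.85, 93.76, 17.16 and 32.31, a TET1-si response of -1.53 in hypoxia and -1.02 in normoxia. Of the list genes named here, LIPA, STARD5, GRAMD1A and STARD3NL were highest in H-scr, as were the members NPC1 and STARD4. GRAMD1C and OSBPL5 were highest in H-si, and the other named genes of this list were highest in a normoxia library.

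GRAMD1C, a sterol transfer protein at contacts between the endoplasmic reticulum and the plasma membrane, took another course. It had 5.205, 18.0, 5.179 and 23.29 FPKM, following oxygen in both knockdown states, with hypoxia responses of 1.77 and 2.15. Its relative GRAMD1A was lower after TET1-si and little altered by oxygen, with TET1-si responses of -1.45 and -1.42. STARD3NL, of the late endosome, gave -1.29 and -1.31. OSBPL5, an oxysterol-binding protein relative, had hypoxia responses of 1.44 and 0.98 and a TET1-si response of 0.93 under normoxia, while OSBPL8 was lower in hypoxia (-0.39 and -0.37) and OSBPL11 in TET1-si cells (-0.45). NCEH1, which hydrolyses cholesteryl esters, was higher after TET1-si (0.55 and 0.52). TSPO, a mitochondrial membrane protein that binds cholesterol, gave 0.37 under hypoxia and 0.69 under normoxia.

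For comparison, 5 genes under SREBP-2 control were set beside the members (HMGCS1, IDI1, SQLE, INSIG1 and SREBF2). This list was chosen with its behaviour in these libraries already known, so it lends no independent weight. In scrambled cells hypoxia went with an increase of at least 2-fold in 5 of 5, beside 12.9% of all genes, with a median of 2.06. After TET1-si under hypoxia 5 of 5 were at least 2-fold lower, beside 8.35%, with a median of -2.08. In TET1-si cells 1 of 5 passed 2-fold upwards in hypoxia, beside 12.5%, and the median was 0.66. SREBF2 had 84.89, 193.4, 46.1 and 85.84 FPKM in N-scr, H-scr, N-si and H-si. INSIG1, which holds SREBP in the endoplasmic reticulum, had 23.67, 171.9, 14.74 and 40.66, a TET1-si response of -2.08 under hypoxia. The values of STARD4 (3.02 and -2.90) lay beyond the ranges of these genes in both contrasts, 1.19 to 2.86 and -2.43 to -1.17, and those of NPC1 (1.25 and -1.12) lay inside the first range and just outside the second.

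**Figure D4:**
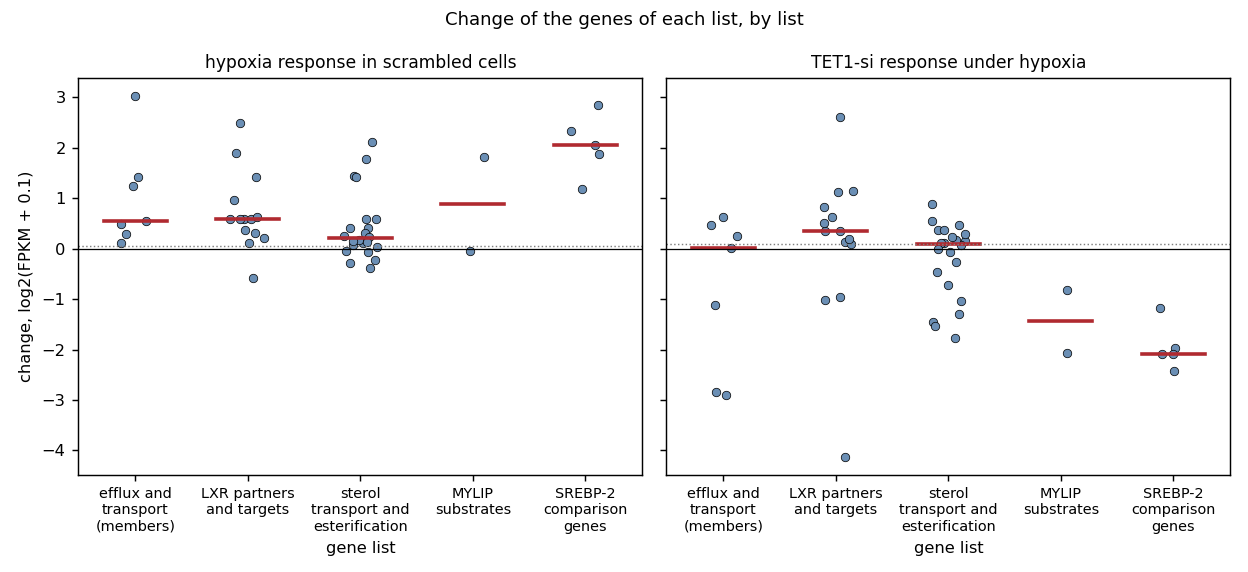
Log2 change of FPKM + 0.1 of each gene with a mean of at least 1 FPKM in 5 lists, for the hypoxia response of the scrambled control and the TET1-si response under hypoxia, with a red bar at each list's median and a dotted line at the median of all genes. The SREBP-2 genes lie on 1 side of 0 in each panel, whereas the 7 members spread from -2.90 to 0.62 in the right panel.

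Genes with a like pattern were sought among 10786 genes with a mean of at least 5 FPKM, by the Euclidean distance of log2(FPKM + 0.1) over the 4 libraries after centring each gene. STARD4 lay nearest to IFI27 at a distance of 0.27, IFI44L at 0.28 and DYRK1B at 0.72. IFI27, an interferon-induced gene, had 46.06, 478.6, 17.37 and 60.7 FPKM in N-scr, H-scr, N-si and H-si. APOC1 lay nearest to CYP51A1 at 0.43, HGSNAT at 0.60 and IL1RN at 0.66. CYP51A1, the sterol demethylase of cholesterol synthesis, had 53.73, 192.4, 21.87 and 21.74. ABCG1 lay nearest to PANX2 at 0.15, ACCS at 0.16 and MAFK at 0.20. MAFK, a small basic leucine zipper factor, had 5.507, 11.97, 12.77 and 32.3. With 4 libraries many genes can share such an order, and these distances are descriptions.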

How the data were processed

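RNA-Seq was performed on FaDu cells in 4 groups of 1 library each, grouped by the oxygen state and the knockdown state in the labels. The authors prepared TruSeq mRNA libraries, sequenced the reads (single end per the labels, paired end per the methods) and ran TopHat and Cufflinks with Ensembl annotation on hg19. Versions, filters, strand and annotation release are not given in the sources used here. The values are FPKM as deposited by the authors, 1 column per library.

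Genes were taken by symbol. Coordinates are hg19, with 1 added to the start positions, which count from 0 in the table. Rows of the 111 gene IDs that stand on more than 1 row (232 rows, 0 of them members) were left out. Changes were log2(FPKM + 0.1), and counts took genes with a mean of at least 1 FPKM (15057) and a 2-fold change. A pseudocount understates the change of low genes.

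Depth was recovered from 18310 genes with 1 exon as the depth and length offset (212 bp) that made low values whole reads, and 97.7% to 98.0% of them came out whole within 0.05. Approximate reads were FPKM times depth times the canonical transcript length in GENCODE v44lift37 less the offset. Intervals of a difference of responses combined those of its parts by square-and-add.

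The members and gene lists were chosen with earlier results of these data known. Some genes of the lists are not reported here and were left out of the list counts. From each list, the 2 highest and 2 lowest changes in each of the 4 contrasts at a mean of at least 5 FPKM were named (a list of 2 in full), and for the 3 members of widest range the 3 nearest genes. Alternatives were a pseudocount of 1 or none, median-of-ratios, upper-quartile and TPM scaling, no filter or a mean of 5 FPKM, a 1.5-fold threshold and the longest transcript. Upstream sequences came from a RefSeq table on GRCh38.p14, and each printed one matched hg19 exactly 1 time. Python 3.11.15, pandas 2.3.3, NumPy 2.4.6, SciPy 1.17.1 and matplotlib 3.10.9 were used.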

Additional observations from a re-analysis of the deposited data

Results flagged for a closer look

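The hypoxia response had opposite signs in the scrambled and the TET1-si cells for APOE, ABCA1, TTC39B and TSPO among the genes named, and with 1 library per group the difference was not tested. For APOE it was 2.16 in scrambled and -0.23 in TET1-si cells, a difference of -2.39, where the TET1-si value rested on approximately 13 and 10 reads. For ABCA1 it was -0.13 and 1.34, a difference of 1.47 (0.43 with a pseudocount of 1), where the scrambled value rested on approximately 51 and 47 reads. For TTC39B, a regulator of LXR stability, it was 0.22 and -0.29, a difference of -0.51. For TSPO it was 0.25 and -0.07, a difference of -0.32, and TPM scaling turned the TET1-si value to 0.07. The counting intervals of APOE in TET1-si cells and of ABCA1 in scrambled cells held 0.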

How the results depend on the processing

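No member value of at least 2-fold turned direction under the pseudocount, scaling and filter alternatives. Of 50 member values (10 genes, 4 contrasts and the difference), 3 turned: the ABCG1 difference of hypoxia responses without a pseudocount, and NR1H2 after TET1-si in normoxia and NPC2 after TET1-si in hypoxia under median-of-ratios and upper-quartile scaling. The 2-fold side changed under some setting for 12 of the 50. With the longest transcript in place of the canonical one, 50 of 50 counting intervals kept their side of 0.

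The median of the members moved with the scaling, as did that of all genes. In the TET1-si response under hypoxia it was -0.13 under median-of-ratios, -0.10 under upper-quartile and 0.08 under TPM scaling, and 0.13 without a filter. Under normoxia it was -0.05 and -0.06 under the first and second of these scalings. For the difference of hypoxia responses it was -0.15 under upper-quartile scaling and -0.05 without a filter. For the hypoxia response in scrambled cells it was 0.44, 0.49 and 0.68 under the 3 scalings in that order and 0.90 without a filter. After TET1-si the median of all genes was 0.10 in hypoxia and 0.15 in normoxia as reported, and -0.03 and -0.00 with median-of-ratios scaling. For the hypoxia response it was 0.05 without and 0.16 with TPM scaling with the scrambled control, and 0.03 and 0.16 with TET1-si. Relative to the median of all genes, the members' median TET1-si response was -0.09 under hypoxia as reported and -0.10 after median-of-ratios scaling.

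Without a filter all 10 members were counted, the added genes being ABCA1, ABCG1 and APOE. At least 2-fold higher were 5 in hypoxia in scrambled cells and 3 in hypoxia in TET1-si cells. After TET1-si 2 were higher under hypoxia and 1 under normoxia, and 1 was higher in the difference. At least 2-fold lower were 4 after TET1-si under hypoxia and 4 in the difference, APOE being the added gene in both. A 1.5-fold threshold gave 2 higher in hypoxia in TET1-si cells and 1 after TET1-si under hypoxia. The share of all genes was not counted without the filter or at 1.5-fold, so these counts have no background beside them. Median-of-ratios and upper-quartile scaling left 1 member each, STARD4, at least 2-fold lower in the difference.

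No paired analysis was possible because each group had 1 library. No replicate was left out, since none was repeated. Depth limited ABCA1, ABCG1, APOE and APOC1, which rested on 5 to 135 approximate reads per library. The counting intervals do not cover differences between cultures or between infections. The line and the vector backbone were shared by all groups, whereas the scrambled and the TET1-si cells came from infections with different hairpins.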
